A study of Mus musculus with 4 samples.

Results

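Primitive endoderm genes were examined in mouse haploid embryonic stem cells (haESCs) treated with the chemical cocktail RDF or with its solvent DMSO. They comprise 9 regulators and markers of this lineage, matched by gene symbol: the transcription factors Gata6, Gata4, Sox17, Sox7 and Hnf4a, the receptor Pdgfra, and the uptake genes Dab2, Cubn and Amn. All 9 were found among the 23235 gene symbols of each sample.

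The cells were of HG165, an androgenetic line whose single chromosome set is paternal, and they stand for 1 line only. There were 2 DMSO-treated and 2 RDF-treated samples, and the genotype was the same in both groups. RDF joins Repsox, which blocks TGF-β receptor signalling, DMH1, which blocks BMP receptors, and Forskolin, which turns on adenylate cyclase. The comparison addresses how the cocktail, used to hold these cells in the haploid state, alters their transcriptome. The protocol in the labels describes growth on feeder cells in ES medium with serum and LIF. The study's methods add that feeders were left out of most experiments, with exceptions that do not name RNA-seq. The dose and length of treatment of the sequenced samples and their share of haploid cells are not given in the sources used here. Nothing states that the samples of a group came from separate cultures, so the p-values measure the spread between these samples, which may be technical.

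Expression was deposited as FPKM, which divide the fragments of a gene by its transcript length and by the mapped fragments of the sample, and the estimated depth was 9550000 to 12300000 fragments a sample. The epiblast factors Pou5f1 (939 to 1285 FPKM), Sox2 (95.8 to 117 FPKM) and Nanog (42.6 to 50.6 FPKM) marked every sample as pluripotent cells, as labelled. The genes whose mean reached 1 FPKM numbered 11733, of which 1561 (13.3%) rose and 972 (8.28%) fell with RDF at a limma adjusted p under 0.05.

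The primitive endoderm is the extraembryonic layer that separates from the epiblast in the late blastocyst and later forms visceral and parietal endoderm. FGF4 from epiblast cells acts through FGF receptors and ERK to favour Gata6 over Nanog in the neighbouring cells, after which Pdgfra, Sox17, Gata4 and Sox7 come on in turn. Embryonic stem cells derive from the epiblast, but cultures can hold a few cells with primitive endoderm features, and forced Gata6 or Gata4 turns such cells into extraembryonic endoderm. Dab2, cubilin and amnionless serve the uptake of maternal proteins by the visceral endoderm.

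Most of the 9 genes were expressed at low levels, far below the epiblast factors. In FPKM, which are per length and can be set side by side across genes, Amn was highest, Gata6 and Gata4 lay between 1.45 and 4.36, and the other 6 had means under 1. Among the 18012 symbols above 0 in at least 1 sample, the mean level placed Amn at percentile 62.7, Gata6 at 49.0 and Gata4 at 48.3. Sox7, Sox17 and Pdgfra stood at percentiles 30.5, 29.7 and 29.5, Hnf4a and Dab2 at 25.5 and 24.3, and Cubn at 6.18. In DMSO-treated cells the order of mean levels was Amn, Gata4, Gata6, Sox17, Sox7, Pdgfra, Hnf4a, Dab2 and Cubn. There the samples of Gata4 and Gata6 overlapped, as did those of each neighbouring pair from Sox17 to Hnf4a. In RDF-treated cells the order was Amn, Gata6, Gata4, Sox7, Pdgfra, Sox17, Dab2, Hnf4a and Cubn, and of the pairs adjacent in this order Sox7 with Pdgfra and Dab2 with Hnf4a overlapped. Gata6 stood above Gata4 with RDF and below it, without separation of the samples, in DMSO.

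**Figure D1:**
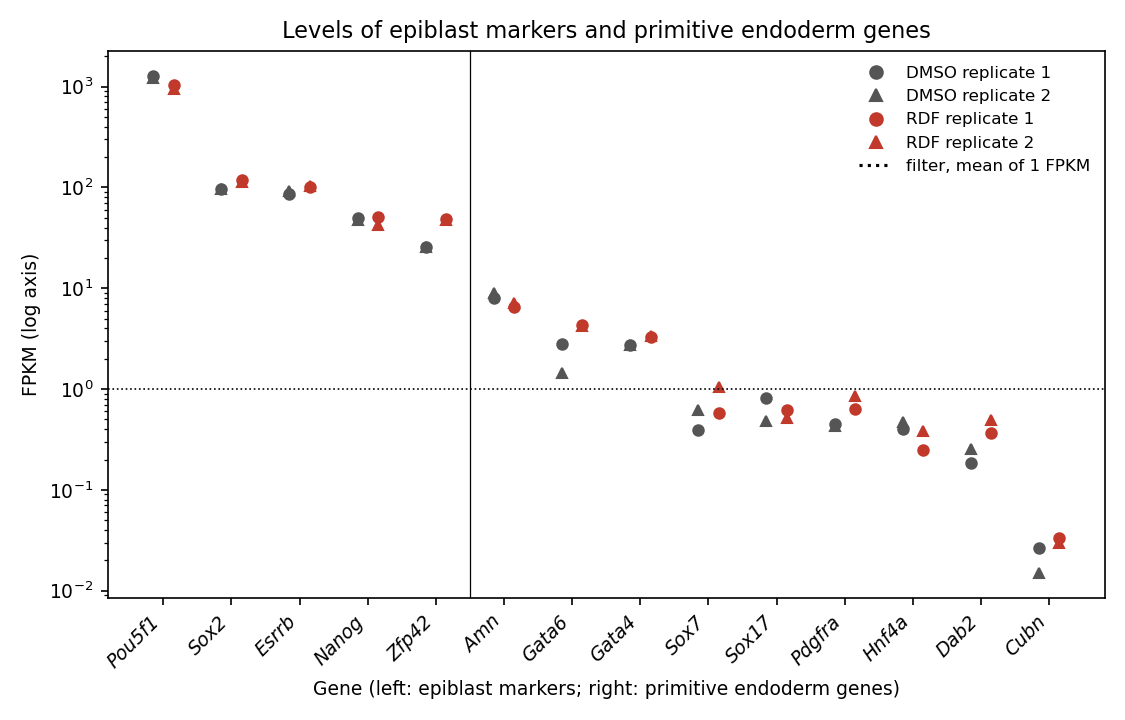
FPKM on a log axis in each of the 4 samples for 5 epiblast markers (left of the line) and the 9 primitive endoderm genes (right), with grey for DMSO, red for RDF, circles for replicate 1 and triangles for replicate 2. The dotted line is the 1 FPKM mean below which genes were not tested, and 3 of the 9 genes lie above it.

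Of the 9 genes, 3 (Gata6, Gata4 and Amn) passed the filter on low values and were tested, 1 rose and 0 fell, beside 21.6% of all tested genes called in either direction, 13.3% up and 8.28% down. At an unadjusted limma p under 0.05, Gata6 was higher and Amn lower, beside 38.0% of all tested genes in either direction. None of the 9 differed more than 2-fold in mean FPKM, beside 1.37% of tested genes over 2-fold higher and 1.55% over 2-fold lower in RDF. These shares leave out genes under the filter, which 6 of the 9 were. In 7 of the 9 genes the samples of the groups did not overlap, 5 higher in RDF and 2 lower. Among all symbols above 0, 55.7% did not overlap, 30.9% higher in RDF and 24.8% lower. The median log2 fold change of the 9 was 0.21 on the log2(FPKM + 1) scale, beside 0.01 over all symbols above 0 and 0.03 over the tested genes.

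Gata6, the zinc finger factor at the head of the primitive endoderm programme, was the gene that rose. It read 2.83 and 1.45 FPKM in DMSO replicates 1 and 2, and 4.36 and 4.19 FPKM in RDF replicates 1 and 2. Both RDF samples lay above both DMSO samples, and the RDF samples were much closer to each other than the DMSO samples were. The mean went from 2.14 ± 0.972 to 4.27 ± 0.116 FPKM (SD, n = 2 each), 1.995-fold higher with RDF. The log2 fold change was 0.78 (SE 0.21), and its limma adjusted p was 0.0428, close to the threshold of 0.05.

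The Gata6 call was lost in most other settings, although its direction was the same in every fit. It was kept in 2 of 8 other settings and lost in 6, with log2 fold changes from 0.72 to 1.03 and limma adjusted p from 0.0254 to 0.114 over those 8. DMSO replicate 1 and DMSO replicate 2 decided its size, since the fold change was 1.10 without DMSO replicate 1 (limma adjusted p = 0.00396) and 0.46 without DMSO replicate 2 (limma adjusted p = 0.0532). Without RDF replicate 1 or RDF replicate 2 it was 0.76 and 0.80, with limma adjusted p of 0.177 and 0.171. The DMSO replicates of Gata6 differed by 0.64 on the log2(FPKM + 1) scale, a difference that 1.13% of tested genes exceeded, against a median of 0.09 over tested genes. The estimated fragments were 86.3 and 52.7 in DMSO and 171 and 151 in RDF. Exact Poisson intervals (95%, counting error only) ran from 2.26 to 3.48 and 1.10 to 1.91 FPKM in the DMSO samples and from 3.72 to 5.06 and 3.56 to 4.93 FPKM in the RDF samples. Gata6 was the only 1 of the 9 whose intervals did not overlap between the groups. The intervals of its 2 DMSO samples did not overlap each other either. The share of all genes with separate intervals was not computed.

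The genes whose pattern over the 4 samples was most like that of Gata6 were Rnf217, Bdkrb2 and Bhlhe41. Likeness was the Euclidean distance between log2(FPKM + 1) values centred on each gene's mean, over 11732 other tested genes, and the distances were 0.178, 0.180 and 0.191. Rnf217, a ring finger ubiquitin ligase gene, read 2.52 and 1.55 FPKM in DMSO and 3.77 and 3.66 FPKM in RDF. Bdkrb2, the bradykinin B2 receptor, read 2.85 and 1.80 FPKM in DMSO and 4.40 and 4.94 FPKM in RDF. Bhlhe41, a basic helix-loop-helix repressor, read 17.1 and 10.7 FPKM in DMSO and 21.5 and 20.4 FPKM in RDF. Each shared the low DMSO replicate 2, so the likeness over 4 samples includes the difference between the DMSO replicates as well as that between the groups.

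Gata4, the relative of Gata6 that follows it in the lineage, is annotated at chr14:63817759-63890529 on the minus strand (NCBIM37, the assembly of mm9). It read 2.76 and 2.73 FPKM in DMSO and 3.31 and 3.37 FPKM in RDF. The replicates were nearly equal within each condition, and the groups did not overlap. The mean was 2.74 ± 0.0253 FPKM with DMSO against 3.34 ± 0.0435 FPKM with RDF (SD, n = 2 each), 1.22-fold apart. The log2 fold change of 0.21 (SE 0.092) did not pass, with a limma adjusted p of 0.145 and 0.0781 to 0.328 over the alternatives. The counting intervals of the groups overlapped, at 2.22 to 3.41 FPKM in the DMSO samples and 2.79 to 4.01 FPKM in the RDF samples. By Q-PCR the study measured Gata4 as a primed pluripotency gene and reported that primed markers were lower with RDF than in mock-treated cells. Its text gives no separate Gata4 value for that comparison.

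The SoxF factors were lower and less even. Sox17, which acts early in primitive endoderm and again in definitive endoderm (chr1:4481009-4486494), read 0.817 and 0.480 FPKM in DMSO and 0.622 and 0.513 FPKM in RDF. The RDF samples lay between the DMSO samples. Sox7, a later primitive endoderm factor kept in parietal endoderm (chr14:64562511-64569569), read 0.393 and 0.616 FPKM in DMSO and 0.575 and 1.06 FPKM in RDF. RDF replicate 2 stood highest and the groups overlapped. Their log2 fold changes were -0.07 for Sox17 and 0.26 for Sox7, and with no filter on low values the limma adjusted p was 0.766 and 0.364. Each rested on few fragments, 17.1 to 24.4 a sample for Sox17 and 12.4 to 39.3 for Sox7, and the counting intervals of the groups overlapped for both.

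Hnf4a, the nuclear receptor that drives visceral endoderm and liver genes (chr2:163332544-163398646), read 0.401 and 0.476 FPKM in DMSO and 0.248 and 0.384 FPKM in RDF. Both RDF samples lay below both DMSO samples. The log2 fold change was -0.13, with a limma adjusted p of 0.359 when no filter was applied, on 13.3 to 23.6 fragments a sample. Hnf4a and Amn were the 2 genes of the 9 that were lower in RDF without overlap.

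Pdgfra, the PDGF receptor that marks primitive endoderm from its onset (chr5:75548316-75594229), read 0.455 and 0.425 FPKM in DMSO and 0.636 and 0.856 FPKM in RDF. The groups did not overlap and the means were 1.70-fold apart. Its log2 fold change was 0.28, with a limma adjusted p of 0.134 without the filter and 0.141 with a filter at 0.1 FPKM. The counting intervals of the groups overlapped, from 0.294 to 0.664 FPKM in DMSO and from 0.470 to 1.09 FPKM in RDF. Fibroblasts, the usual feeder cells, also express Pdgfra, and fibroblast markers, described further on, differed between the conditions. The methods do not list RNA-seq among the experiments with feeders. Their part in the Pdgfra values was not tested.

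**Figure D2:**
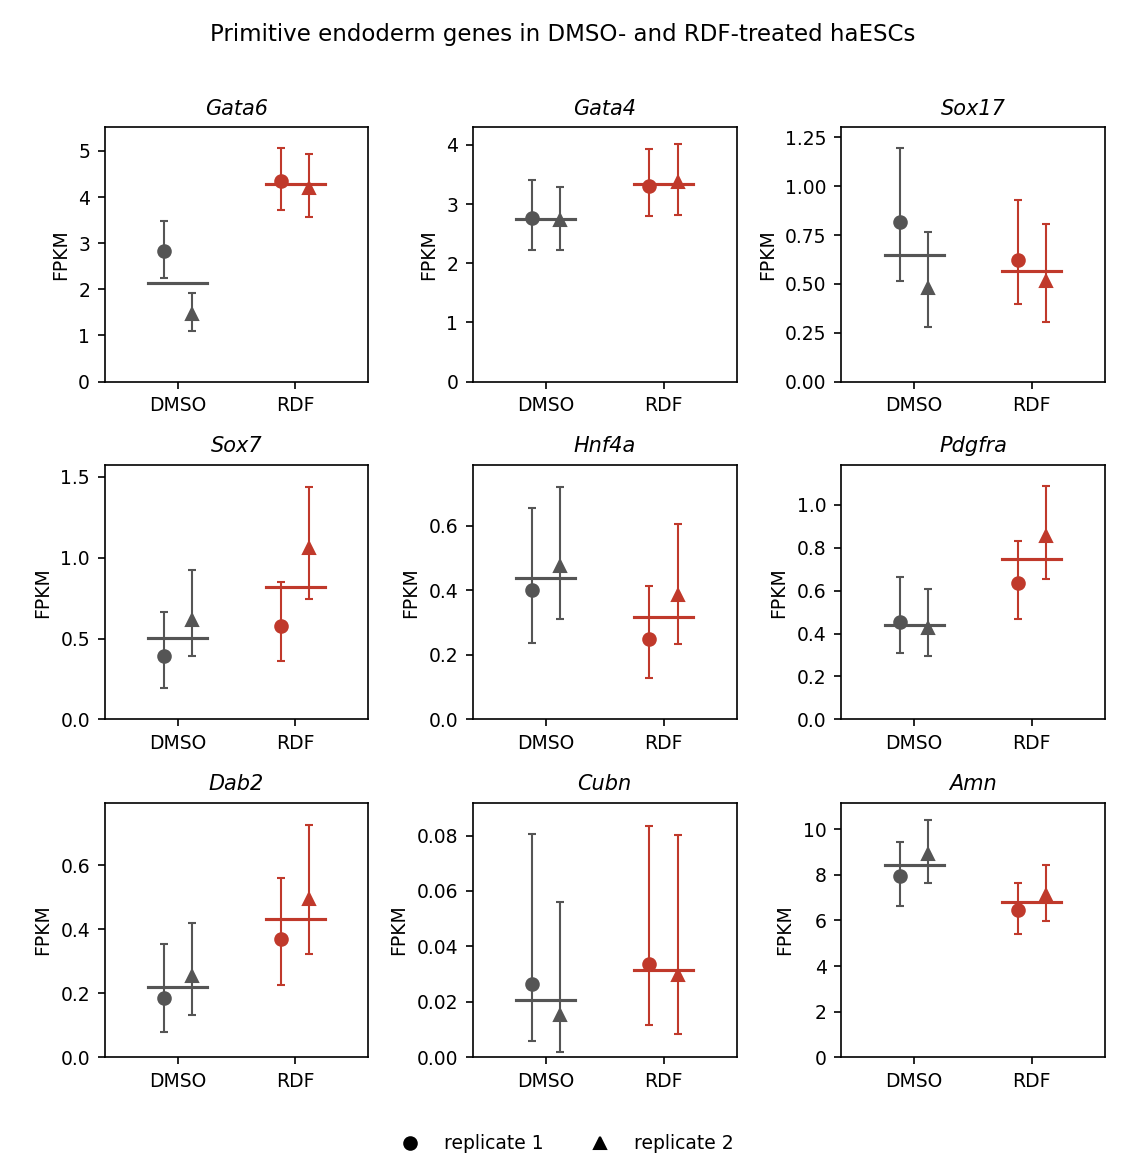
FPKM of the 9 primitive endoderm genes in DMSO (grey) and RDF (red), on a separate axis from 0 for each gene, with circles for replicate 1, triangles for replicate 2, a horizontal line for the group mean and bars for the 95% Poisson interval of the estimated fragments. Gata6 is the panel in which the bars of the groups stay apart, and there the bars of the 2 DMSO samples stay apart as well.

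The 3 uptake genes did not move as a unit. Amn encodes amnionless, the membrane partner that brings cubilin to the cell surface, and lies at chr12:112509322-112514637. It read 7.96 and 8.92 FPKM in DMSO and 6.46 and 7.13 FPKM in RDF, with both RDF samples below both DMSO samples. The mean was 8.44 ± 0.679 FPKM with DMSO against 6.80 ± 0.471 FPKM with RDF (SD, n = 2 each), 1.24-fold apart. The log2 fold change was -0.28 (SE 0.092), with a limma adjusted p of 0.0806, so Amn did not pass. Over the alternatives that p ran from 0.0490, under quantile normalization, to 0.278.

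Dab2, the adaptor that links megalin and its cargo to clathrin (chr15:6249788-6390712), read 0.184 and 0.253 FPKM in DMSO and 0.370 and 0.494 FPKM in RDF. Both RDF samples were above both DMSO samples, and the means were 1.98-fold apart. On 8.18 and 13.4 fragments in DMSO and 21.2 and 25.9 in RDF the counting intervals overlapped. The log2 fold change was 0.23, with a limma adjusted p of 0.124 without the filter. Fibroblasts express Dab2 as well, so the fibroblast markers bear on it as they do on Pdgfra, and their part was not tested.

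Cubn, cubilin itself (chr2:13197965-13413551), read 0.0263 and 0.0151 FPKM in DMSO and 0.0335 and 0.0297 FPKM in RDF. That is about 1.95 to 4.68 fragments a sample, and the counting intervals of the groups overlapped. Amn was thus well above its partner Cubn in every sample, 6.46 to 8.92 against 0.0151 to 0.0335 FPKM.

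The gene models overlap an annotated gene on the opposite strand for Gata6, Hnf4a, Dab2 and Cubn. The library kit keeps strand, but whether the counting used it is not given in the sources used here. The Hnf4a neighbour 0610008F07Rik was listed at 0 except in DMSO replicate 2, where it read 0.119 FPKM.

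Promoter windows are shown for the members whose searched windows hold a GATA hexamer and for Amn, the most abundant, since Gata6 and Gata4 are themselves DNA-binding factors. The windows are the 250 bases before the start site in RefSeq (GRCm38.p6), 5′ to 3′ on the gene's strand. For the 9 genes, the search left out windows on the chromosome that holds Gata6. It took 7 windows from that table, for 5 of the 9 genes (Amn, Cubn, Dab2, Hnf4a and Pdgfra). Capitals mark the GATA hexamer, searched on both strands in 4 spellings, which are AGATAA, its form ending in G, AGATAG, and the same pair beginning with T, TGATAA and also TGATAG. The windows are chr15:6299539-6299788 for Dab2, chr2:163506607-163506856 for Hnf4a and chr12:111270846-111271095 for Amn, all on the plus strand.
Dab2: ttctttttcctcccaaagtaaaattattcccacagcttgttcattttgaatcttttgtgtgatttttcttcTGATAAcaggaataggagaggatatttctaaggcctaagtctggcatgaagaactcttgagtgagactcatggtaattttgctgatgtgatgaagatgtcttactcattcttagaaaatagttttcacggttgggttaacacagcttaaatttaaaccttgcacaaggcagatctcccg
Hnf4a: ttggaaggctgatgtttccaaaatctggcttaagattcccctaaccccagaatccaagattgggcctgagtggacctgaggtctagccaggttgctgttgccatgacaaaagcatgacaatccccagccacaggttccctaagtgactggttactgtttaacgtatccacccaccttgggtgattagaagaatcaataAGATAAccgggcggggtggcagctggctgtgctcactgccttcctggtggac
Amn: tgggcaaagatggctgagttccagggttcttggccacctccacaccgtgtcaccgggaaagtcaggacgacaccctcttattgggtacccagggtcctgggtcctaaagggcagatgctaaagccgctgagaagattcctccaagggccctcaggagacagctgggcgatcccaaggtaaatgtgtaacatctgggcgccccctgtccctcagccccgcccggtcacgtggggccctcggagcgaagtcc
Dab2 has TGATAA at 179 to 174 bases upstream of the start, and Hnf4a has AGATAA at 52 to 47 bases upstream. The windows of Amn, Cubn and Pdgfra and the second windows of Dab2 and Hnf4a hold none of these letters. So 2 of 7 windows held a hexamer, beside 26.5% of all 32851 windows in the table, where no chromosome was left out. A match is only a match of letters. Dab2 and Hnf4a, which each have one, lay on opposite sides of DMSO in RDF.

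Around the 9 genes, 3 other GATA factors and the GATA cofactor Zfpm1 rose with RDF. Of 14 related transcription factors found, 6 were tested, 4 rose and 0 fell, beside 13.3% of all tested genes up and 8.28% down. The median log2 fold change of the 14 was 0.12. Gata3 and Gata1 stood under 1 FPKM in both DMSO samples and reached the filter only through their RDF values. Without RDF replicate 2 the count that rose was 2. Zfpm1, known as FOG1, the zinc finger partner of GATA proteins, read 4.40 and 3.74 FPKM in DMSO and 13.0 and 12.2 FPKM in RDF. It was 3.10-fold higher with RDF, with a log2 fold change of 1.43 (SE 0.095, limma adjusted p = 0.000947). Gata3, a trophoblast and lymphoid factor, read 0.729 and 0.898 FPKM in DMSO and 2.73 and 2.93 FPKM in RDF (log2 fold change 1.08, SE 0.11, limma adjusted p = 0.00320). Both calls held in all 8 other settings and without each sample in turn.

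Gata2, a factor of blood progenitors and trophoblast, rose from 10.9 and 10.5 to 15.1 and 17.4 FPKM (log2 fold change 0.56, limma adjusted p = 0.00923). Gata1, the erythroid member, was close to the filter, at 0.749 and 0.858 FPKM in DMSO and 1.35 and 1.58 FPKM in RDF (log2 fold change 0.45, limma adjusted p = 0.0448). The Gata1 call was lost in 3 of the 8 other settings and without any 1 of the 4 samples. Gata5, the endodermal and cardiac relative, was listed at 0 in both DMSO samples and at 0.026 and 0.082 FPKM in RDF. By level Gata2 exceeded both Gata6 and Gata4 in every sample, so the most abundant GATA factor here was not one of the primitive endoderm pair.

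Further partners were low and untested. Foxa2, a forkhead factor of endoderm, read 0.232 and 0.310 FPKM in DMSO and 0.641 and 0.576 FPKM in RDF, with a limma adjusted p of 0.0534 without the filter. Sox18, the third SoxF gene, read 0.583 and 0.672 FPKM in DMSO and 0.210 and 0.506 FPKM in RDF, the reverse side from Sox7.

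On the side of the PDGF ligands and receptors, 10 genes were found, with a median log2 fold change of 0.04. Of these 6 were tested, 1 rose and 0 fell, beside 13.3% of all tested genes up and 8.28% down. Pdgfa, the main ligand of Pdgfra in the blastocyst, was abundant, at 32.9 and 34.8 FPKM in DMSO and 35.2 and 39.8 FPKM in RDF (log2 fold change 0.14, limma adjusted p = 0.222). The ligand was therefore far above its receptor in every sample. Pdgfb and Pdgfc gave log2 fold changes of 0.03 and -0.10 with limma adjusted p of 0.826 and 0.620, and Pdgfd was below the filter. Pdgfrb, the sister receptor found in mesenchyme, read 1.60 and 1.42 FPKM in DMSO and 1.75 and 2.06 FPKM in RDF (log2 fold change 0.21, limma adjusted p = 0.241). The gene that rose was Kit, the stem cell factor receptor of the same kinase class, at 8.52 and 8.08 FPKM in DMSO and 14.7 and 15.6 FPKM in RDF (log2 fold change 0.80, limma adjusted p = 0.00231).

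The uptake machinery around Dab2, Cubn and Amn split in direction. Of 10 genes found, 8 were tested, 1 rose and 2 fell, beside 13.3% of all tested genes up and 8.28% down. The median log2 fold change of the 10 was -0.00302. Lrpap1, the chaperone of megalin, fell from 37.3 and 36.8 to 17.2 and 17.2 FPKM. The groups stood 2.15-fold apart, with a log2 fold change of -1.06 (SE 0.056, limma adjusted p = 0.000518), and the call held in all 8 other settings and without each sample in turn. Lrp2, megalin itself, read 1.03 and 1.22 FPKM in DMSO and 0.531 and 0.622 FPKM in RDF. Its mean over the 4 samples was under the filter, and its limma adjusted p was 0.0577 with no filter and 0.0450 with a filter at 0.1 FPKM. Tcn2, the plasma carrier of vitamin B12, fell by 0.46 on the log2 scale (limma adjusted p = 0.0138). The count that fell was 1 without RDF replicate 1 or RDF replicate 2, and the count that rose was 0 without RDF replicate 2. Dab2 and its receptor megalin thus lay on opposite sides of DMSO, with neither tested in the filtered fit.

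**Figure D3:**
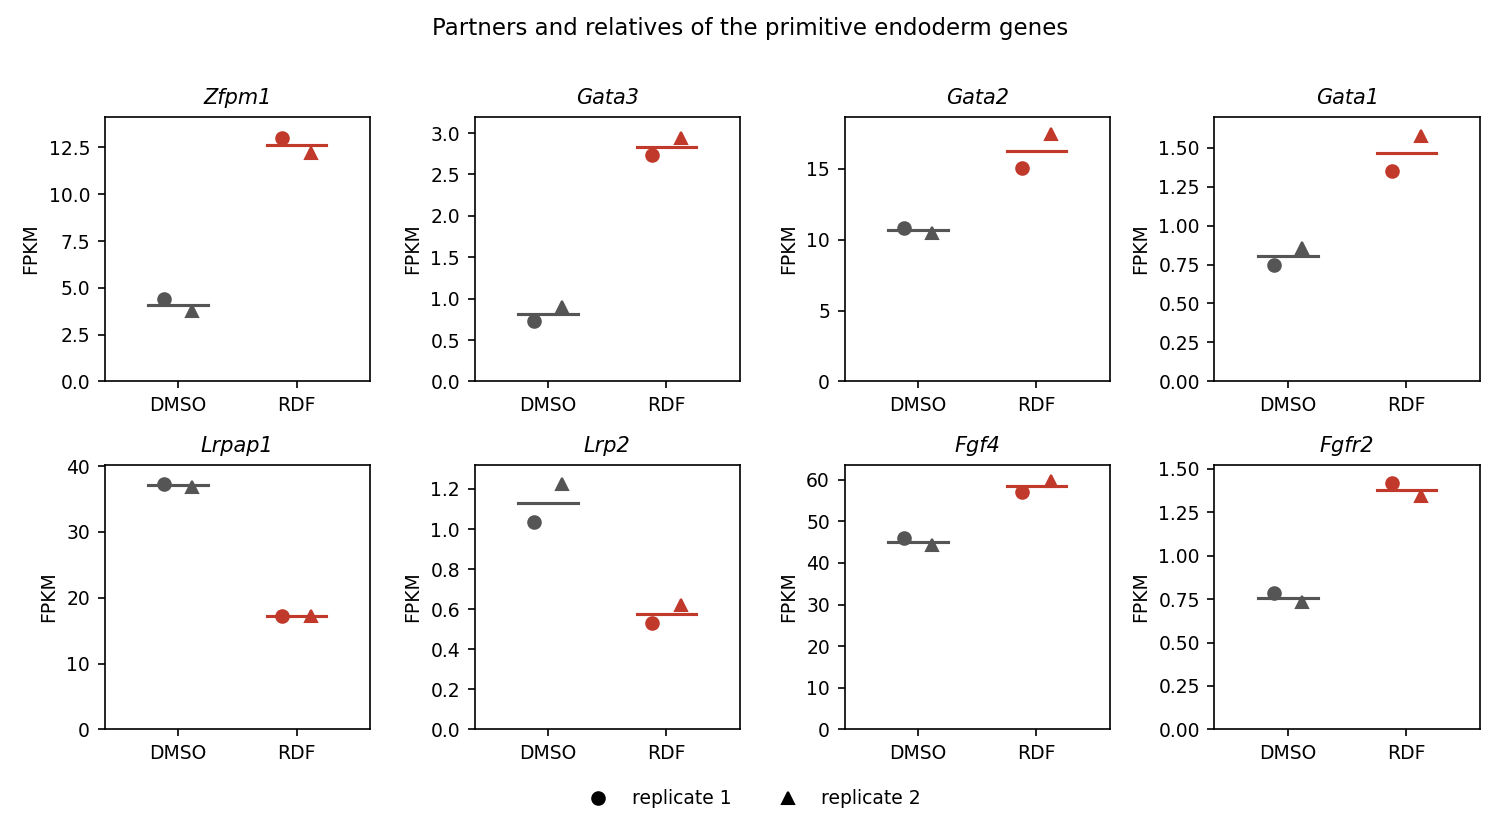
FPKM of 8 partners and relatives of the primitive endoderm genes in DMSO (grey) and RDF (red), on a separate axis from 0 for each gene, with circles for replicate 1, triangles for replicate 2 and a horizontal line for the group mean. The groups do not overlap in any of the 8 panels, and Lrpap1 and Lrp2 are the panels that are lower in RDF.

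Several genes of the FGF input that favours Gata6 in the blastocyst rose. Of 10 genes, all tested, 5 rose and 0 fell, beside 13.3% of all tested genes up and 8.28% down, with a median log2 fold change of 0.30. The other 5 did not pass. Among them was the receptor Fgfr1, at 9.95 and 9.96 FPKM in DMSO and 9.52 and 10.9 FPKM in RDF (log2 fold change 0.03, limma adjusted p = 0.807). Fgf4, the epiblast ligand, rose from 45.9 and 44.3 to 57.1 and 59.8 FPKM (log2 fold change 0.37, limma adjusted p = 0.00913). Fgfr2, the receptor typical of primitive endoderm, read 0.784 and 0.731 FPKM in DMSO and 1.42 and 1.35 FPKM in RDF (log2 fold change 0.44, limma adjusted p = 0.0409). Fgfr2 was under 1 FPKM in both DMSO samples and reached the filter only through its RDF values. Its call was lost under quantile normalization, under the replicate block and without any 1 of the 4 samples. Fgfr3 and the adaptors Frs2 and Sos1 rose by 0.58, 0.44 and 0.34 on the log2 scale (limma adjusted p = 0.00558, 0.0148 and 0.0443). The Sos1 call was kept in 3 of the 8 other settings and lost without any 1 of the 4 samples. The count that rose was 3 without DMSO replicate 1 or DMSO replicate 2, and 0 without RDF replicate 1 or RDF replicate 2.

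Products of the primitive endoderm derivatives gave calls in both directions. Of 17 visceral endoderm genes found, 7 were tested, 1 rose and 1 fell, beside 13.3% of all tested genes up and 8.28% down. The median log2 fold change of the 17 was 0, and 4 (Ttr, Apoa4, Alb and Cer1) were listed at 0 in every sample. The one that rose was Apoe, an apolipoprotein that many cell types make, from 1366 and 1340 to 2007 and 1930 FPKM (log2 fold change 0.54, limma adjusted p = 0.00602). The one that fell was Cited1, a transcriptional cofactor, from 27.3 and 30.9 to 21.2 and 19.4 FPKM (log2 fold change -0.50, limma adjusted p = 0.0113). Afp, the classical secreted marker of visceral endoderm, read 0.252 to 0.330 FPKM in the 4 samples. Without RDF replicate 1 or RDF replicate 2, 0 genes of this list rose and 0 fell.

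Of 21 parietal endoderm genes found, 20 were tested, 2 rose and 7 fell, beside 13.3% of all tested genes up and 8.28% down. The median log2 fold change of the 21 was -0.05. Nid2, a basement membrane nidogen, read 126 and 113 FPKM in DMSO and 66.7 and 69.8 FPKM in RDF (log2 fold change -0.80, limma adjusted p = 0.00198). Serpinh1, the collagen chaperone, fell by 0.52 and Krt19, a keratin, by 0.41 on the log2 scale (limma adjusted p = 0.00623 and 0.00788). Plat, tissue plasminogen activator, rose by 0.49 (limma adjusted p = 0.0183). The count of genes that fell was 4 without DMSO replicate 1 and 2 without RDF replicate 1 or RDF replicate 2, and in each of these fits 0 rose.

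Fibroblasts make many of these matrix genes, and markers of fibroblasts also differed between the conditions. Of 20 such markers found, 15 were tested, 3 rose and 7 fell, beside 13.3% of all tested genes up and 8.28% down. The median log2 fold change of these 20 markers was 0.04. Their summed level was 70.6 to 74.8 FPKM in DMSO and 51.9 to 53.2 FPKM in RDF, while 11 of the 20 had a higher mean in RDF and 9 a lower one. Fap, a surface protease of activated fibroblasts, was listed at 0 in 1 sample of each group. Col1a1, Postn, Acta2 and Tagln encode collagen, a matrix protein and contractile proteins. They fell by 1.76, 1.71, 1.71 and 1.70 on the log2 scale (limma adjusted p = 0.000577, 0.00164, 0.00619 and 0.00219). Postn and Acta2 were under 1 FPKM in both RDF samples and reached the filter only through their DMSO values. Dcn, the proteoglycan decorin, rose by 1.65 (limma adjusted p = 0.00112). Prrx1, which also rose, was under 1 FPKM in both DMSO samples and reached the filter only through its RDF values. The count that rose was 1 without RDF replicate 1 or RDF replicate 2. The part of fibroblasts in the parietal endoderm values was not tested, and in these bulk samples fewer cells of a type and less RNA per cell cannot be told apart.

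**Figure D4:**
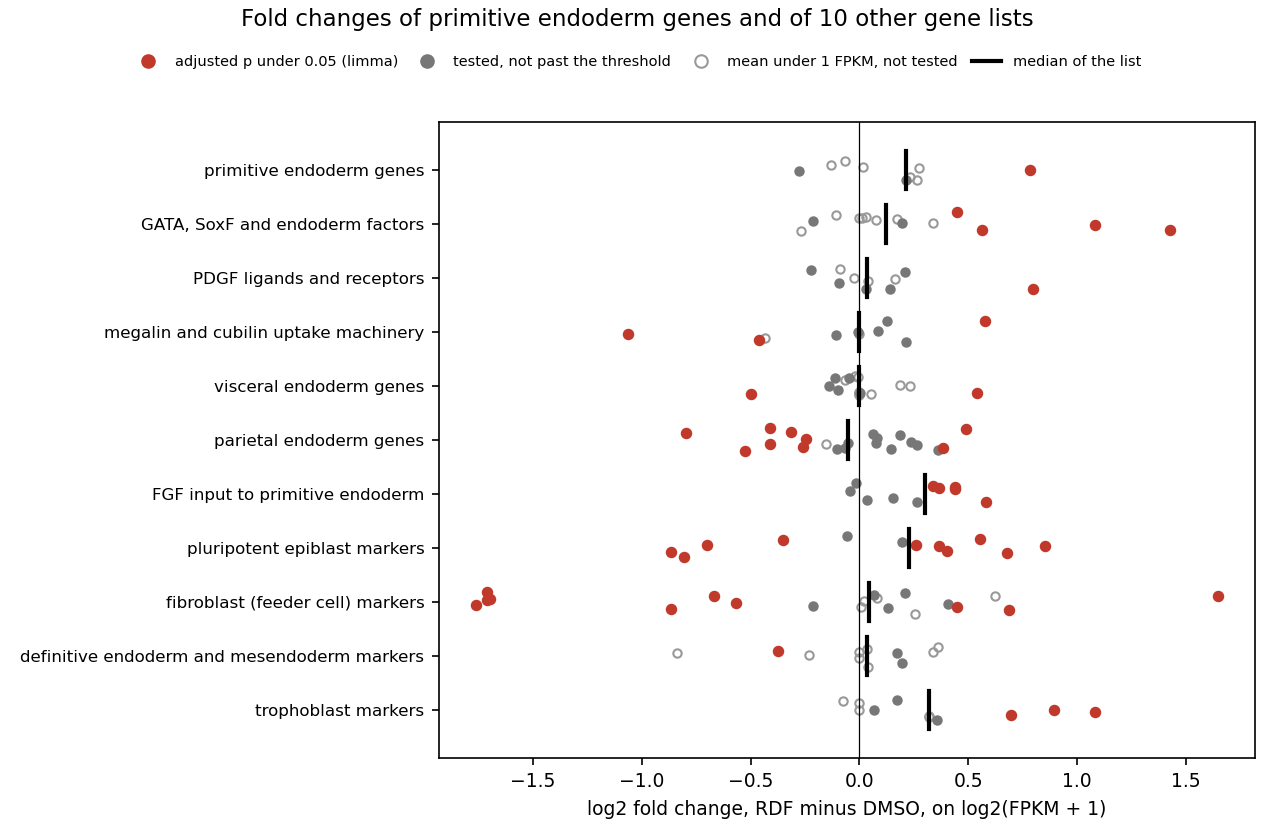
Log2 fold change, RDF minus DMSO on log2(FPKM + 1), of every gene found in the 9 primitive endoderm genes and 10 other lists, with red for a limma adjusted p under 0.05, grey for tested genes that did not pass, open circles for genes under the filter and a black bar for the median of all genes found. Gata6 is the only red point in the top row. Of 10 FGF genes 5 are red on the right, and of 20 tested parietal endoderm genes 7 are red on the left and 2 on the right. Over all tested genes 13.3% rose and 8.28% fell.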

How the data were processed

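RNA-seq was made from 2 DMSO-treated and 2 RDF-treated samples of haESCs, with libraries from 150 ng of total RNA and a stranded mRNA kit. The submitters' processing notes name TopHat2 2.0.14, Bowtie2 2.1.0, Cufflinks 2.2.1 and mm9, and the deposited values are FPKM for 23235 symbols, estimated by the authors with Cufflinks on the UCSC mm9 annotation. These values are already divided by library size and transcript length, so no count test was run and low genes carry few fragments. Whether counting used strand, and how reads shared by several genes were handled, is not given in the sources used here. Samples were grouped by their titles.

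Depth was estimated from 3913 genes with a single transcript of at least 1500 nt, where FPKM times length steps by whole fragments. Of low values, 39.4% to 42.7% lay within 0.1 of a whole fragment at the estimate, against 20% if spread evenly, so the estimates (9550000, 11350000, 12300000 and 11250000 fragments for DMSO 1, DMSO 2, RDF 1 and RDF 2) are approximate. Fragments of a gene used its longest transcript in GENCODE models of NCBIM37, where 21828 symbols were found, and their exact Poisson intervals (95%) cover counting error only.

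The 11733 genes whose mean over all 4 samples reached 1 FPKM were compared on log2(FPKM + 1) with limma 3.58.1 in R 4.3.3 (lmFit, eBayes with a mean-variance trend, no block), with Benjamini-Hochberg adjustment over all 11733 and a threshold of 0.05. The log2(FPKM + 1) scale understates the change of low genes. With 2 samples on each side the smallest two-sided p of an exact permutation test is 0.333, so this test was not used. The fit was tested on simulated data. Other pseudocounts (0.1 and 0.5), filters, scalings, a fit without the trend, a fit blocked on the replicate number and fits without each sample in turn were run as alternatives.

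The 9 genes and the 10 lists beside them were chosen with earlier results of these data known. Named are all 9 genes, up to 4 called genes per list with the largest fold change, the paralogs, ligands and partners of the 9 (2 genes that this rule selects are not reported here), and the 3 tested genes nearest to a called member. Afp, Fap, Fgfr1, Sos1, Dcn, T and the epiblast factors were named after their values were seen. Symbols not found were Cblif (its older symbol Gif was listed at 0), Rhox5 and Lamb1-1 (found as Lamb1). Promoter windows came from RefSeq (GRCm38.p6), and no coordinates were converted between builds.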

Additional observations from a re-analysis of the deposited data

How the results depend on the processing

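Across all genes, 942 rose and 606 fell with no filter on low values. Leaving out 1 sample gave 253 to 1121 genes that rose and 195 to 731 that fell, the fewest without RDF replicate 2 (253 and 195) and without RDF replicate 1 (358 and 235), where the lone sample is assumed to vary like the other group.

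Gata6 had log2 fold changes of 1.03 with a pseudocount of 0.1 (limma adjusted p = 0.0502), 0.78 with no filter (0.114), 0.78 with a filter at 0.1 FPKM (0.0565), 0.76 with median-ratio scaling (0.0511), 0.72 with quantile normalization (0.0621) and 0.78 without the mean-variance trend (0.0613), so under each of these 0 of the 9 genes rose. Under quantile normalization 1 of the 9 fell, Amn, at -0.34 (limma adjusted p = 0.0490). Why the calls moved was not tested.

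With a pseudocount of 0.1 the untested genes moved to 0.57 for Sox7, -0.39 for Hnf4a, 0.64 for Pdgfra, 0.74 for Dab2 and 0.13 for Cubn, and with 0.5 to 0.40 for Pdgfra, 0.37 for Dab2 and 0.030 for Cubn, since a smaller pseudocount shrinks low genes less. The medians became 0.39 and 0.18 for the GATA, SoxF and endoderm factors at 0.1 and 0.5, and 0.093 for the PDGF list and 0.12 for the fibroblast list at 0.1. The epiblast median was 0.19 with median-ratio scaling and 0.26 with quantile normalization. Calls upward became 1 for the parietal endoderm list with no filter and 3 for the FGF list with quantile normalization, and calls downward 0 for the definitive endoderm list at either pseudocount.

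Without each sample in turn, the log2 fold changes ran from 0.46 to 1.10 for Gata6, 0.20 to 0.22 for Gata4, -0.21 to 0.08 for Sox17, 0.07 to 0.46 for Sox7, -0.21 to -0.05 for Hnf4a, 0.18 to 0.37 for Pdgfra, 0.17 to 0.30 for Dab2, 0.01 to 0.02 for Cubn and -0.35 to -0.20 for Amn, and 0 to 1 of the 9 genes rose. Genes that rose numbered 2 to 3 for the GATA list, 0 to 1 for the uptake and visceral lists, 0 to 2 for the parietal list, 0 to 3 for the FGF list, 3 to 6 for the epiblast list, 1 to 3 for the fibroblast list and 2 to 3 for the trophoblast list. Genes that fell numbered 1 to 2 for the uptake list, 0 to 1 for the visceral list, 2 to 6 for the parietal list, 2 to 4 for the epiblast list, 5 to 7 for the fibroblast list and 0 for the definitive endoderm list. Medians ran from 0.068 to 0.14 for the GATA list, 0.018 to 0.062 for PDGF, -0.035 to 0.017 for uptake, -0.068 to 0.0055 for parietal, 0.24 to 0.37 for FGF, 0.21 to 0.25 for epiblast, -0.033 to 0.082 for fibroblast, 0 to 0.088 for definitive endoderm and 0.088 to 0.31 for trophoblast.

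With the replicate number as a block, 1651 genes rose and 1066 fell, Gata6 passed with a limma adjusted p of 0.0254, and the definitive endoderm list had 0 genes that fell. Deviations of same-numbered samples from their group means had a Pearson r of 0.134 over 11733 genes (Spearman rho 0.114), a description over 2 pairs only, so the numbers are not taken to pair the samples. At this depth the 6 genes under 1 FPKM, with 1.95 to 63.3 estimated fragments a sample, have wide counting intervals.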

Other observations

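Markers of other early lineages were read beside the primitive endoderm genes. All 12 pluripotent epiblast markers were tested, 6 rose and 4 fell, beside 13.3% of all tested genes up and 8.28% down. The median log2 fold change of the 12 was 0.23. The count that rose was 3 without RDF replicate 1 or RDF replicate 2, and the count that fell was 2 without RDF replicate 2. Zfp42, known as Rex1, a marker of naive cells, rose from 25.8 and 25.9 to 48.1 and 47.0 FPKM (log2 fold change 0.85, limma adjusted p = 0.000836). Dppa5a, a germ cell and stem cell RNA-binding protein, Utf1, a chromatin factor, and Tdgf1, a Nodal coreceptor, fell by 0.86, 0.80 and 0.70 on the log2 scale (limma adjusted p = 0.00421, 0.00192 and 0.00280). Nanog, which opposes Gata6 in the blastocyst, read 49.6 and 47.0 FPKM in DMSO and 50.6 and 42.6 FPKM in RDF (log2 fold change -0.06, limma adjusted p = 0.682), with overlap.

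Of 11 trophoblast markers found, 6 were tested, 3 rose and 0 fell, with a median log2 fold change of 0.32. Besides Gata3 they were Tfap2c and Hand1, transcription factors of trophoblast cells that other early cells also use, which rose by 0.90 and 0.70 on the log2 scale (limma adjusted p = 0.00119 and 0.00821). Tpbpa and Prl3d1, products of differentiated trophoblast, were listed at 0 in every sample. Of 11 definitive endoderm and mesendoderm markers found, 3 were tested, 0 rose and 1 fell, beside 13.3% of tested genes up and 8.28% down. The median log2 fold change of the 11 was 0.04. By group mean 6 of the 11 were higher in RDF and 4 lower. T, under the filter and so not among the 3, read 1.63 and 1.27 FPKM in DMSO and 0.333 and 0.401 FPKM in RDF. Its limma adjusted p was 0.0250 with no filter and 0.00967 with a filter at 0.1 FPKM. The gene that fell was Cxcr4, a chemokine receptor (log2 fold change -0.37, limma adjusted p = 0.0488), and its call was kept in 3 of 8 other settings and lost without any 1 of the 4 samples.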
